A study of Rattus norvegicus with 6 samples.

Results

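The tripartite motif (TRIM) genes of rat PC12 cells were compared between cells that received a PCBP-1 overexpression plasmid (PCBP1-OE) and cells that received a control plasmid. Members were the protein-coding genes of the count table whose symbol is Trim followed by a number, which gave 48 genes of 20609 in the table. Each was found by its symbol in RefSeq, on the same chromosome as in the count table. The PC12 line was derived from a tumor of the rat adrenal medulla (a pheochromocytoma), and PCBP-1 is an RNA-binding protein that recognizes C-rich sequence. RNA-seq of poly-A RNA was performed on 3 control libraries and 3 PCBP1-OE libraries. All cells were PC12 in serum-containing medium, and the PCBP-1 plasmid carried an EGFP tag and was delivered with a lipid reagent. The methods describe a transfection, whereas the introduction of the study speaks of stable overexpression. When the cells were harvested for RNA-seq, and what the control plasmid carried, is not given in the sources used here. Nothing in the labels says whether the replicates came from separate cultures, so the p-values measure the spread between these libraries, which may be technical. The level of the overexpressed gene was not analysed here.

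Most TRIM proteins hold a RING domain, 1 or more B-box zinc fingers and a coiled coil, though some members lack the RING. Most act as E3 ubiquitin ligases, the enzymes that choose the proteins to which ubiquitin is attached. An E1 enzyme activates ubiquitin, an E2 enzyme carries it, and the RING domain of the TRIM protein brings the loaded E2 to the target. The domain that follows the coiled coil differs between members and largely sets what each one binds, so the results are mainly ordered by it. Each member was put in 1 group only. Members with a COS box and members without a RING domain (Trim14, Trim16 and Trim29) were grouped apart, whether or not they also carry a SPRY domain. Members not assigned to another group were counted as SPRY. Several members with a SPRY domain are known as effectors or regulators of the antiviral response, and some of these are themselves interferon-inducible.

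The libraries held 19730209 to 22315623 counts on genes, and the 48 members received 0.145% to 0.152% of them in every library. Genes with at least 1 count numbered 16950 to 17085 in controls and 17153 to 17390 in PCBP1-OE, which did not overlap, and the part of this in the results was not tested. Of 8 chromaffin markers fixed for the check of the cell type, Scg2 had 2607 to 3553 counts per library, Th 141 to 185 and Slc18a1 17 to 28. The other 5 (Chga, Chgb, Dbh, Ddc and Slc18a2) had 0 to 9 counts per library. Sox10, a glial and neural crest marker, had 7160 to 9007 counts. Defining chromaffin markers other than Scg2 and Th were thus near 0 in libraries labelled PC12. The summed level of 5 glial markers was 620 to 664 CPM (read counts scaled to the library size) in controls and 586 to 606 CPM in PCBP1-OE, and that of 3 fibroblast markers was 224 to 229 and 199 to 211 CPM, without overlap in either list. Nearly all of the fibroblast sum was Pdgfra, with means of 223 CPM in controls and 203 CPM in PCBP1-OE. Col1a1 went the other way, at means of 3.16 and 3.38 CPM, and Dcn had 0 to 5 counts per library. Among the 5 leukocyte markers in the table, Ptprc had 0 to 3 counts per library, Itgam 4 to 6 and Lyz2 14 to 30. Cd3e had 52 to 79 and Cd68 had 56 to 81. The summed level of the 5 was 7.60 to 8.96 CPM in controls and 6.89 to 7.66 CPM in PCBP1-OE. The part of these markers in the results was not tested, and in bulk RNA fewer cells of a type and less RNA per cell cannot be told apart.

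The tests were two-sided and were made by the quasi-likelihood method of edgeR, with an adjusted p (FDR, Benjamini-Hochberg over all genes tested) of 0.05 or less as the threshold for a call. Levels are given as CPM scaled by the trimmed mean of M-values (TMM), which compares 1 gene between libraries and not genes with each other. Of the 48 members, 37 had enough counts for the test and 11 did not. Trim33 and Trim21 were called higher in PCBP1-OE, Trim47 was called lower, and the other 34 were not called. These 3 of 37 members are 8.11%, and among all 12624 genes tested 9.45% were called, so the share of called TRIM genes was near the background. By direction, 4.45% of all genes were called higher and 5.0% lower. No member passed the threshold with a 2-fold change in edgeR's test, DESeq2 or any other of the 14 alternatives, against 0.19% of all genes in the main test. An unadjusted p under 0.05 was reached by 9 members (24.3%, against 28.4% of all genes). The log2 fold change (log2 FC) of the 37 members had a median of 0.0088, against 0.0029 over all genes, and its median size without regard to sign was 0.13 in both sets. The estimate lay above 0 in 20 members and below 0 in 17.

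**Figure D1:**
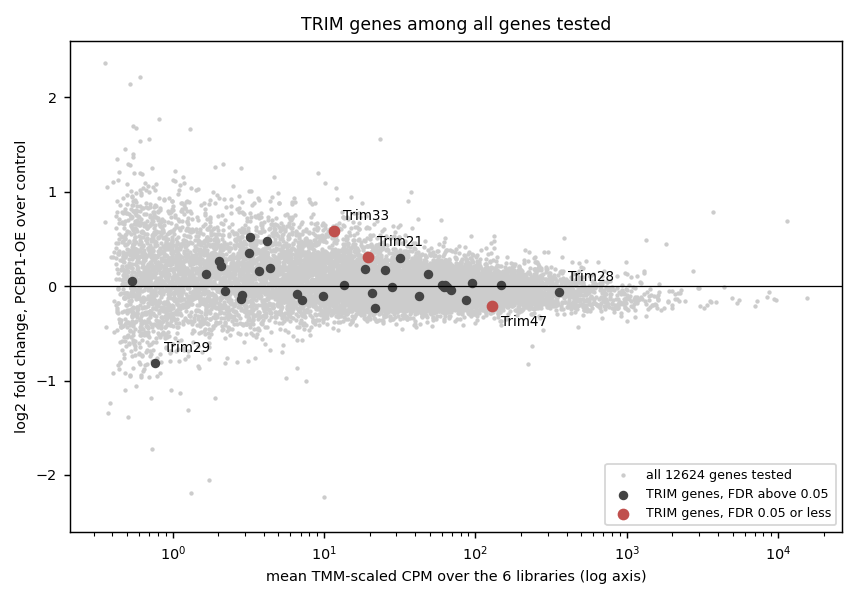
Log2 fold change of PCBP1-OE over control (vertical axis) against the mean TMM-scaled CPM over the 6 libraries (horizontal log axis) for all 12624 genes tested (grey) and the 37 TRIM genes tested (dark grey, or red with an FDR of 0.05 or less). The TRIM genes lie within the cloud of all genes, from -0.82 for Trim29 to 0.58 for Trim33.

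Groups of libraries that did not overlap were found in 13 of the 37 members (35.1%), where 30.6% of all genes tested had such groups. Of the 13, 7 were higher and 6 lower in PCBP1-OE, against 14.1% and 16.5% of all genes. The sum of all 48 members was 1469 to 1495 CPM in controls and 1450 to 1473 CPM in PCBP1-OE, and the groups overlapped.

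The member with the largest called change was Trim33 (ENSRNOG00000018946, chromosome 2), one of the members with a PHD finger and a bromodomain, which read histone marks. Trim33, also known as TIF1-gamma, is a chromatin-bound regulator of transcription that modifies the signalling of the TGF-beta pathway. Its levels were 9.43, 6.95 and 11.7 CPM in control replicates 1, 2 and 3 and 13.5, 15.02 and 13.7 CPM in PCBP1-OE replicates 1, 2 and 3. Every PCBP1-OE library was above every control, and control replicate 2 was the lowest. The group means were 9.37 ± 2.39 and 14.1 ± 0.836 CPM (SD, n = 3 each), from 145 to 303 counts per library. Trim33 rose by 49.7%, a log2 FC of 0.58 (standard error 0.15, 95% interval 0.25 to 0.92, adjusted p = 0.0370 by edgeR's quasi-likelihood test). The call was lost when any library but control replicate 3 was left out, and the adjusted p was then 0.110 and 0.144 for omission of control replicates 1 and 2, and 0.114, 0.132 and 0.0706 for that of PCBP1-OE replicates 1, 2 and 3. Omission of control replicate 3 gave 0.00117, and the 14 alternatives spanned 1.3e-04 to 0.144.

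The close relatives of Trim33 were not called. Trim28 (KAP1), the corepressor recruited by KRAB zinc finger proteins, had 6765 to 7990 counts per library, more than any other member. It was at 372, 357 and 356 CPM in controls and 351, 345 and 345 CPM in PCBP1-OE. These groups did not overlap, but they lay close together, with a log2 FC of -0.06 (standard error 0.04, edgeR adjusted p = 0.376) and a 95% interval of -0.15 to 0.03. Trim24 (TIF1-alpha), a coregulator of nuclear receptors, was at 21.4, 22.9 and 27.3 CPM in controls and 26.5, 27.7 and 26.5 CPM in PCBP1-OE, which overlapped. Its log2 FC of 0.17 had a 95% interval of -0.03 to 0.37 (edgeR adjusted p = 0.244). Trim66, the remaining member of this group, had 5 to 10 counts per library and was not tested.

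The SPRY group, without the COS box members and those that lack a RING domain, was the most numerous, with 23 members, of which 20 were tested. Of the 20, 1 was called higher and 1 lower, against 4.45% and 5.0% of all genes tested. The median log2 FC of the 20 was 0.0099, with estimates above 0 in 11 and below 0 in 9. The member called higher was Trim21 (ENSRNOG00000018517, chromosome 1), the cytosolic antibody receptor that sends antibody-coated virus to the proteasome. Its levels were 16.1, 18.6 and 17.4 CPM in controls and 21.0, 22.2 and 21.7 CPM in PCBP1-OE. The groups did not overlap, and the controls spread about as far as the gap between the groups. The means were 17.4 ± 1.24 and 21.6 ± 0.605 CPM (SD, n = 3 each), from 316 to 462 counts per library. Trim21 rose by 24.3%, a log2 FC of 0.31 (standard error 0.09, 95% interval 0.13 to 0.50, edgeR adjusted p = 0.0397). This call also held without control replicate 3 (0.0229) and in no other omission, where the adjusted p was 0.137 and 0.0922 for control replicates 1 and 2, then 0.118, 0.138 and 0.0699 for PCBP1-OE replicates 1, 2 and 3. The 14 alternatives spanned 0.0165 to 0.138.

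The member called lower was Trim47 (ENSRNOG00000008215, chromosome 10), a SPRY-type ligase whose targets are less well known. Trim47 was at 139, 147 and 126 CPM in controls and 117, 117 and 123 CPM in PCBP1-OE. All PCBP1-OE libraries lay below all controls, although control replicate 3 and PCBP1-OE replicate 3 were near each other. Each library held 2351 to 3075 counts for it. The means were 138 ± 10.8 and 119 ± 3.72 CPM (SD, n = 3 each), and Trim47 fell by 13.7%, a log2 FC of -0.21 (standard error 0.06, 95% interval -0.33 to -0.09, edgeR adjusted p = 0.0369). Omission of control replicate 3 took the adjusted p to 0.00126, the lowest of the 14 alternatives. That of control replicates 1 and 2 took it to 0.154 and 0.225, the latter being the highest, and that of PCBP1-OE replicates 1, 2 and 3 to 0.160, 0.132 and 0.0706. Trim65, its neighbour on the chromosome in RefSeq, was not called (log2 FC -0.07, 95% interval -0.26 to 0.12).

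**Figure D2:**
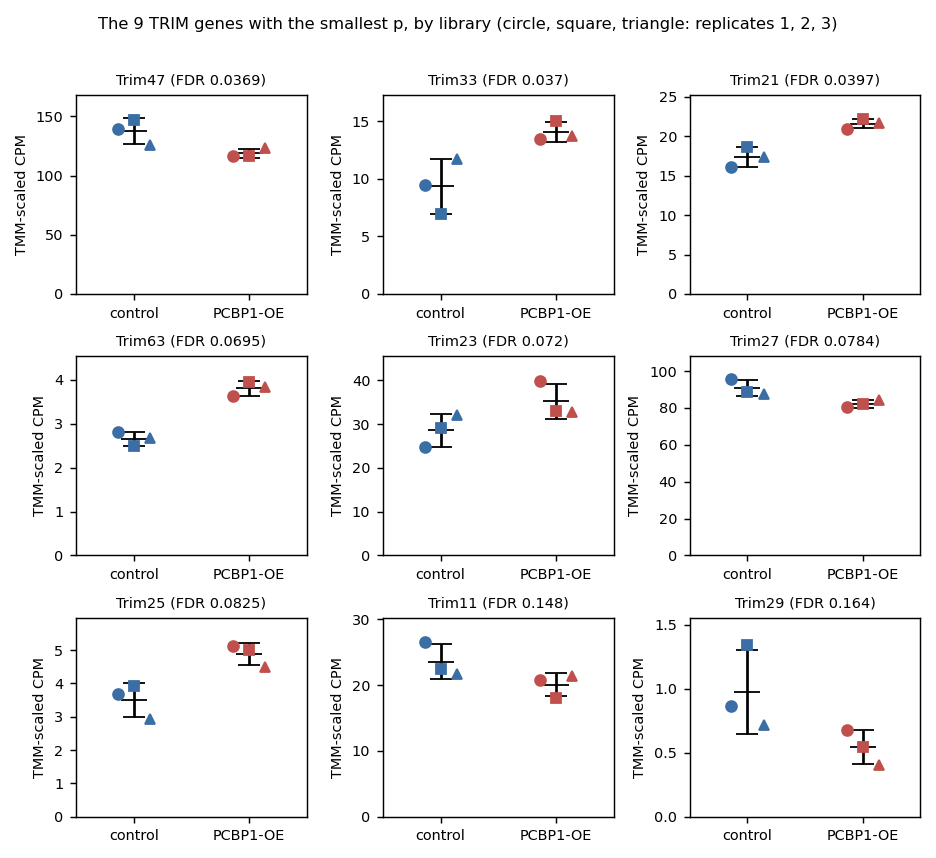
TMM-scaled CPM (vertical axes, each starting at 0) of the 9 TRIM genes with the smallest p in the 3 control libraries (blue) and the 3 PCBP1-OE libraries (red), with bars for the mean and SD of each group and circles, squares and triangles for replicates 1, 2 and 3. In all 9 genes the groups do not overlap, and the first 3 panels, Trim47, Trim33 and Trim21, have an FDR under 0.05.

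A list of 23 TRIM names known as interferon-inducible or as regulators of antiviral defence matched 9 members, of which 8 were tested. The list holds human and mouse names, and those not matched were not analysed here. Trim21 was the only 1 of the 8 that was called, while 4.45% of all genes tested were called higher and 5.0% lower. The median log2 FC of the 8 was 0.095, against 0.0029 over all genes, with 5 estimates above 0 and 3 below. Trim25, the ligase that attaches ubiquitin chains to the RNA sensor RIG-I, was at 3.67, 3.93 and 2.94 CPM in controls and 5.13, 5.01 and 4.49 CPM in PCBP1-OE, without overlap. Its log2 FC was 0.48 (standard error 0.17, edgeR adjusted p = 0.0825), from 66 to 113 counts per library, and it passed in 0 of the 14 alternatives. Trim23, which joins a RING ligase to an ARF-type GTPase domain, was at 24.7, 29.0 and 32.2 CPM in controls and 39.8, 33.1 and 32.8 CPM in PCBP1-OE. Control replicate 3 and PCBP1-OE replicate 3 nearly met in this gene, and its log2 FC was 0.30 (standard error 0.10, edgeR adjusted p = 0.0720). Trim23 was called in 4 of 14 alternatives, which were the test without a filter (adjusted p = 0.00142), DESeq2 (0.0491), the exact test of edgeR (0.0462) and the test without control replicate 3 (0.00789).

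The remaining members of this list were closer to 0. Trim34, a relative of Trim5, was at 17.0, 17.7 and 18.1 CPM in controls and 17.9, 20.2 and 21.6 CPM in PCBP1-OE, a log2 FC of 0.18 (95% interval -0.02 to 0.38). Trim5, known as a restriction factor that binds the capsid of retroviruses, was at 60.0, 64.1 and 63.8 CPM in controls and 62.4, 64.7 and 62.2 CPM in PCBP1-OE. The 95% interval of its change was -6.43% to 8.51%, so a change of the size of that of Trim21 lay outside it. Trim26 had a log2 FC of -0.01 (95% interval -0.17 to 0.16), Trim65 of -0.07 and Trim6 of -0.05 (95% interval -0.57 to 0.48), and Trim6 rests on 32 to 58 counts per library. Trim14, which acts in signalling from mitochondria, had 5 to 12 counts per library and was not tested. Trim6, Trim34 and Trim5 follow each other on chromosome 1 with no protein-coding gene between them in RefSeq. They are related in sequence, and since uniquely mapped reads were counted, reads that fit more than 1 of them were left out of their values.

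Because Trim21 and its relatives are known interferon targets, the promoters of the members were searched for 2 sequence motifs of that pathway. RefSeq promoters (assembly GRCr8, 250 bases before to 50 after the annotated start) were found for 39 members, 31 of them among the 37 tested. The core of the interferon-stimulated response element was searched as GAAA, any 2 bases and GAAA, and the gamma-activated site as TTCNNNGAA, on both strands. Pairs of overlapping matches to the first motif were counted as 1 promoter. The first motif was held by 4 of the 39 promoters (Trim21, Trim26, Trim34 and Trim40) and by 3.92% of all 33469 promoters in the table. The second was held by those of Trim23 and Trim31 and by 8.87% of all promoters. The promoters of Trim33, Trim47 and Trim25 held neither within this window, which says only that these letters are not in it. The 3 tested members with the first motif are printed because they carry the same element and differ in their values. Capitals mark the bases covered by the matches, sequences run 5′ to 3′ on the strand of the gene, and positions count from the annotated start as 1. The promoter of Trim21 is chr1:166399322-166399621 on the minus strand, with matches that start at -18 and -12. That of Trim34 is chr1:168118793-168119092 on the plus strand, with matches at 11 and 17, and that of Trim26 is chr20:1736262-1736561 on the minus strand, with matches at -198 and -192.
Trim21: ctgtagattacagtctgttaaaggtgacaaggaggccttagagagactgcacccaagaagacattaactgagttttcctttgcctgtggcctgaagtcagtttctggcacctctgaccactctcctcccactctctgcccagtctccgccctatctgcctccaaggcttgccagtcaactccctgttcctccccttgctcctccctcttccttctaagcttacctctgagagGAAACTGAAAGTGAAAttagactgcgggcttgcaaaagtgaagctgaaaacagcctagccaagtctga
Trim34: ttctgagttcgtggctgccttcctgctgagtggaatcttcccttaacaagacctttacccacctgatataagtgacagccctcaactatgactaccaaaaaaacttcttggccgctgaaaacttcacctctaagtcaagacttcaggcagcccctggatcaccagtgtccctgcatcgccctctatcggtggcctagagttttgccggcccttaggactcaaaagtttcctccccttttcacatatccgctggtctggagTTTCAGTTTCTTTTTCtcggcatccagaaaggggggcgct
Trim26: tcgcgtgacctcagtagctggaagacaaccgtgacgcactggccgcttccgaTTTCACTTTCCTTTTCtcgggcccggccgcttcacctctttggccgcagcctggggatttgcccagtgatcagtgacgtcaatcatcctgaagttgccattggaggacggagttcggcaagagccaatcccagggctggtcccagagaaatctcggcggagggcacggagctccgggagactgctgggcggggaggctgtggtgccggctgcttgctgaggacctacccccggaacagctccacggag

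Beside these sequences, the log2 FC was 0.31 for Trim21, which was called, 0.18 for Trim34 and -0.01 for Trim26, neither of which was called. The differences between these genes were not tested. Trim40, with 2 counts in control replicate 3 and 0 in the other 5 libraries, was below the filter on low counts. A match is a description of the letters, and no binding was measured here.

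The other SPRY members with a small p were Trim27 and Trim11. Trim27, first known as RFP, was at 95.6, 88.8 and 87.7 CPM in controls and 80.2, 81.9 and 84.4 CPM in PCBP1-OE, which did not overlap. Its log2 FC was -0.14 (standard error 0.05, edgeR adjusted p = 0.0784), and it was called in 1 of 14 alternatives, without control replicate 3 (0.0266). Trim11, a ligase known from the removal of misfolded proteins, was at 26.6, 22.4 and 21.7 CPM in controls and 20.8, 18.1 and 21.3 CPM in PCBP1-OE. Control replicate 1 stood above the other controls, and the log2 FC was -0.23 (standard error 0.10, edgeR adjusted p = 0.148), with a call only without control replicate 3 (0.0474). Trim69 had a log2 FC of 0.35 and Trim39 of -0.15, and neither was called. Trim41 and Trim35 were bounded about as tightly as Trim5, with 95% intervals of -6.37% to 8.11% and -8.34% to 7.38%. Trim80, at 4 to 20 counts per library, had a 95% interval of the log2 FC from -1.13 to 1.23, so that even a 2-fold change was not detectable at this depth. RefSeq lists Trim47 among the synonyms of Trim80, so the name of the latter row is less certain than those of the others.

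Members with NHL or filamin repeats include ligases of neurons and of muscle. None of the 4 tested was called, against 9.45% of all genes tested. Trim2, which is needed for the upkeep of axons, was at 93.5, 92.8 and 94.0 CPM in controls and 96.8, 94.7 and 94.4 CPM in PCBP1-OE. These values did not overlap, yet the 95% interval of the change was -4.20% to 8.59%. Trim3, a ligase of the postsynaptic density, had a log2 FC of -0.10 (95% interval -0.23 to 0.02). For Trim32, in which mutations cause a limb-girdle muscular dystrophy, the levels were 43.2, 45.1 and 50.6 CPM in controls and 49.5, 50.3 and 51.8 CPM in PCBP1-OE. The groups overlapped through control replicate 3, and the log2 FC was 0.12 (95% interval -0.01 to 0.26). Trim45 had 44 to 88 counts per library and a log2 FC of -0.14 (95% interval -0.65 to 0.38). Trim71, a member of embryonic cells and the germ line, had 1 count in each of 2 PCBP1-OE libraries and none elsewhere.

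Members with a COS box bind microtubules or, as the MuRF proteins, parts of the sarcomere. Of 6 such members 3 were tested and 0 called by edgeR's test, against 9.45% of all genes tested. Trim63 (MuRF1), a ligase of muscle atrophy, was at 2.81, 2.49 and 2.68 CPM in controls and 3.63, 3.96 and 3.83 CPM in PCBP1-OE. The groups stood apart with little spread, but they rest on 52 to 80 counts per library. Its log2 FC was 0.52 (standard error 0.17, edgeR adjusted p = 0.0695), and 0 of the 14 alternatives brought it past the threshold (0.0540 to 0.210). The 3 muscle markers in the table had a summed level of 2.70 to 3.17 CPM in controls and 1.39 to 2.04 CPM in PCBP1-OE. Among them Ckm, the creatine kinase of muscle, was called lower (log2 FC -0.77, edgeR adjusted p = 0.0477), Acta1 was not called and Myh7 had 0 to 4 counts. Their part in the values of Trim63 was not tested. Trim46, which bundles microtubules at the axon initial segment, had a log2 FC of 0.02 (95% interval -0.25 to 0.28), and Trim36 one of 0.22 (95% interval -0.32 to 0.75). Trim54 and Trim55, the other MuRF genes, had 1 to 8 and 2 to 15 counts per library, and Trim9 had 1 count in all, so that they fell below the filter.

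The members with other domains showed no call. Trim8, which carries no further domain and acts in cytokine signalling, was at 159, 144 and 139 CPM in controls and 148, 146 and 150 CPM in PCBP1-OE. The controls spread on both sides of the PCBP1-OE libraries, and the 95% interval of the change was -6.97% to 8.79%. Trim37, the MATH domain member that is mutated in mulibrey nanism, had an interval of -9.94% to 5.63%. The transmembrane members Trim59 and Trim13 had log2 FCs of -0.01 and -0.10. Among members without a RING domain, Trim29 had the largest estimate of the family, at -0.82 log2 (standard error 0.37, edgeR adjusted p = 0.164). It was at 0.867, 1.34 and 0.714 CPM in controls and 0.681, 0.545 and 0.408 CPM in PCBP1-OE, from 8 to 28 counts per library. Its groups barely separated, and the 95% interval ran from -1.61 to -0.02. Trim16 had a log2 FC of -0.08 (95% interval -0.42 to 0.26).

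**Figure D3:**
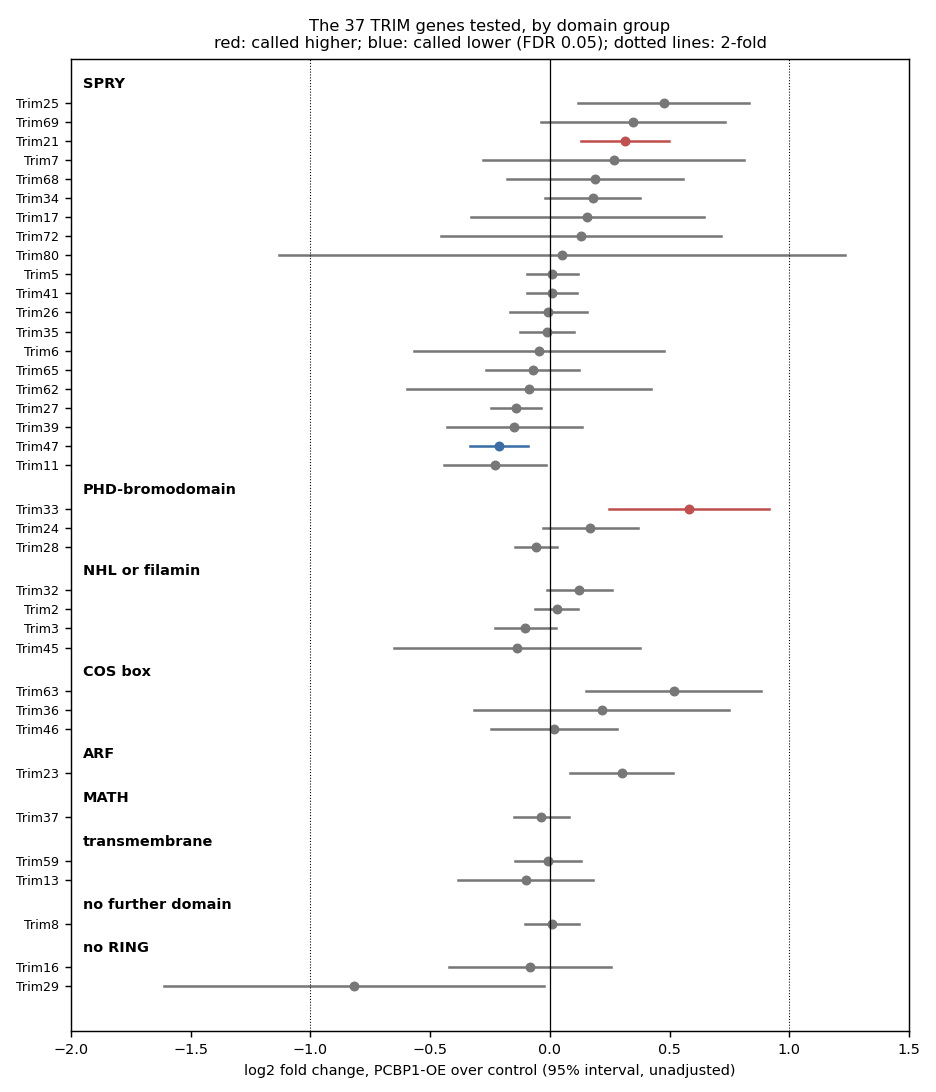
Log2 fold change of PCBP1-OE over control with its unadjusted 95% interval (horizontal axis) for the 37 TRIM genes tested. Groups follow the domain after the coiled coil, except that members without a RING domain form their own group. Trim33 and Trim21 (red) were called higher and Trim47 (blue) lower, and only the intervals of Trim29 and Trim80 reach past a 2-fold change (dotted lines).

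In 35 of the 37 tested members (94.6%, against 90.2% of all genes tested) the whole unadjusted 95% interval lay within a 2-fold change in either direction. In 12 of them it lay within a 1.2-fold change. The standard errors ran from 0.04 for Trim28 to 0.55 for Trim80. The 11 members without a test had totals of 1 to 56 counts over the 6 libraries and at most 16 counts in any library, and Trim43a had the most. These were Trim9, Trim10, Trim14, Trim31, Trim40, Trim43a, Trim50, Trim54, Trim55, Trim66 and Trim71. Without the filter on low counts they entered edgeR's test and none was called, and DESeq2 gave them no adjusted p. Trim31, Trim40 and Trim10 lie next to each other on chromosome 20 in RefSeq, where Trim26 is separated from Trim10 by 1 protein-coding gene. Their counts of 0 to 5 per library stood beside 570 to 611 for Trim26.

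The calls changed when a single library was left out, as did the share of all genes called. With control replicate 3 left out, 8 members were called, of 38 tested, when 22.3% of all genes were called. These were Trim21, Trim23, Trim24, Trim32 and Trim33 higher and Trim11, Trim27 and Trim47 lower. With any of the other 5 libraries left out, 0 members were called by edgeR's test, and 6 to 8 had an unadjusted p under 0.05. Of all genes, 1.92% and 0.375% were called without control replicates 1 and 2, and 1.32%, 1.06% and 5.42% on omission of PCBP1-OE replicates 1, 2 and 3, so that 0 members was near the background. The direction of the 9 members with the smallest p did not reverse in the alternatives that gave them an adjusted p, which were 12 for Trim29 and 14 for each of the others.

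**Figure D4:**
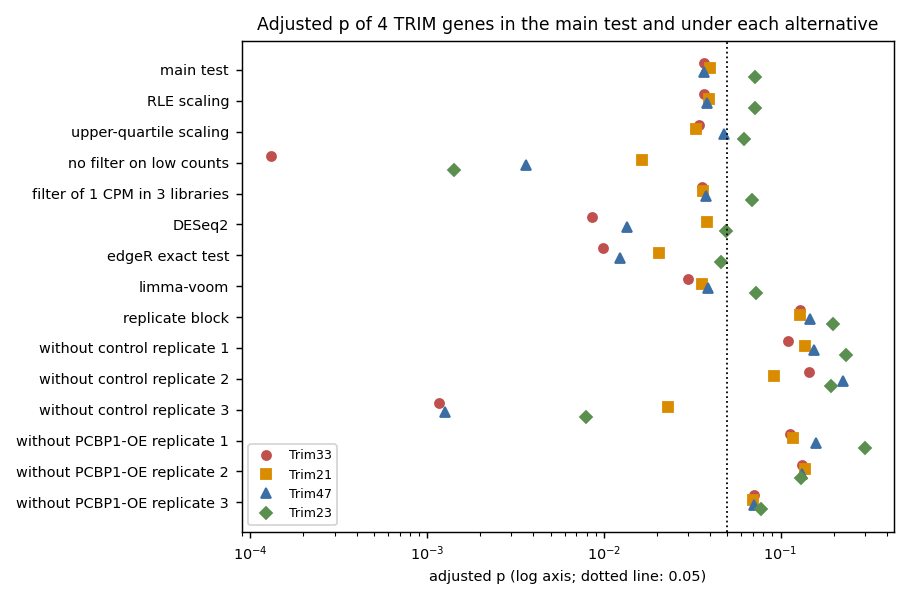
Adjusted p (horizontal log axis, dotted line at 0.05) of Trim33, Trim21, Trim47 and Trim23 in the main test and under each of the 14 alternatives (vertical axis). Trim33, Trim21 and Trim47 pass in all alternatives that use every library except the replicate block, and of the 6 omissions only in that of control replicate 3.

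The enzymes that supply TRIM ligases with ubiquitin were examined from a list of 28 names, comprising E1 enzymes, E2 enzymes and TRIM proteins named otherwise. Of these 25 were in the table and 22 were tested, and 1 was called, in the direction of higher levels in PCBP1-OE. Among all genes tested 4.45% were called higher and 5.0% lower. Ube2o (ENSRNOG00000011007), a large E2 enzyme that also acts as a ligase, was at 38.8, 38.0 and 47.4 CPM in controls and 55.1, 54.6 and 46.2 CPM in PCBP1-OE. Although control replicate 3 lay above PCBP1-OE replicate 3, Ube2o was called higher (log2 FC 0.33, standard error 0.09, edgeR adjusted p = 0.0396). Ube2o lost the call on omission of control replicates 1 (0.138) and 2 (0.176) and of PCBP1-OE replicates 1 (0.160) and 2 (0.141). The E2 enzymes that most RING ligases use, Ube2d1, Ube2d2, Ube2d3 and Ube2n, had log2 FCs of 0.01, 0.02, 0.13 and -0.08 and were not called. Pml, which is TRIM19 under its usual name, had a log2 FC of 0.27 (edgeR adjusted p = 0.0750), and Mid2 one of -0.03.

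Of 23 names of signalling proteins that TRIM ligases act on or with, 22 were tested. Of these, 2 were called higher and 0 lower by edgeR's test, against 4.45% and 5.0% of all genes tested. The median log2 FC of the 22 was 0.13, against 0.0029 over all genes. Tab2 (ENSRNOG00000016054), which binds ubiquitin chains to bring the kinase TAK1 to its activators, was at 87.4, 89.6 and 102 CPM in controls and 112, 115 and 109 CPM in PCBP1-OE. No library overlapped, and Tab2 rose, with a log2 FC of 0.27 (standard error 0.06, edgeR adjusted p = 0.0169). Traf3 (ENSRNOG00000008145), an adaptor between innate sensors and interferon induction, was at 14.02, 15.3 and 19.9 CPM in controls and 23.3, 22.7 and 20.4 CPM in PCBP1-OE. Control replicate 3 and PCBP1-OE replicate 3 lay close together, and the log2 FC was 0.43 (standard error 0.12, edgeR adjusted p = 0.0419). Leaving out control replicates 1 and 2 took the adjusted p of Tab2 to 0.0867 and 0.121 and that of Traf3 to 0.157 and 0.179. Leaving out PCBP1-OE replicates 1 and 2 took them to 0.0852 and 0.0754 and to 0.164 and 0.136, and without PCBP1-OE replicate 3 Traf3 was at 0.0520. The substrate of Trim25, Ddx58 (RIG-I), had a log2 FC of 0.70 (edgeR adjusted p = 0.0714), and Ifih1 (MDA5) one of 0.35 (0.0530). Irf7, the transcription factor of late interferon induction, was at 0.73 (edgeR adjusted p = 0.0593). Other higher estimates of similar adjusted p by edgeR were those of Tab3 (log2 FC 1.07, 0.0720), Zc3hav1 (0.16, 0.0656) and Sqstm1 (0.14, 0.0682). That of Tab3 was the largest of the list, from 13 to 41 counts per library. Lower estimates of similar adjusted p were those of Irf3, a relative of Irf7 (log2 FC -0.22, edgeR adjusted p = 0.0552), and of the kinase Ikbke (log2 FC -0.35, edgeR adjusted p = 0.0700). The number called higher in this list was 5 under upper-quartile scaling, 8 without a filter, 5 with DESeq2 and 7 with the exact test of edgeR, where 5.19%, 5.24%, 5.54% and 6.29% of all genes with an adjusted p were called higher.

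**Figure D5:**
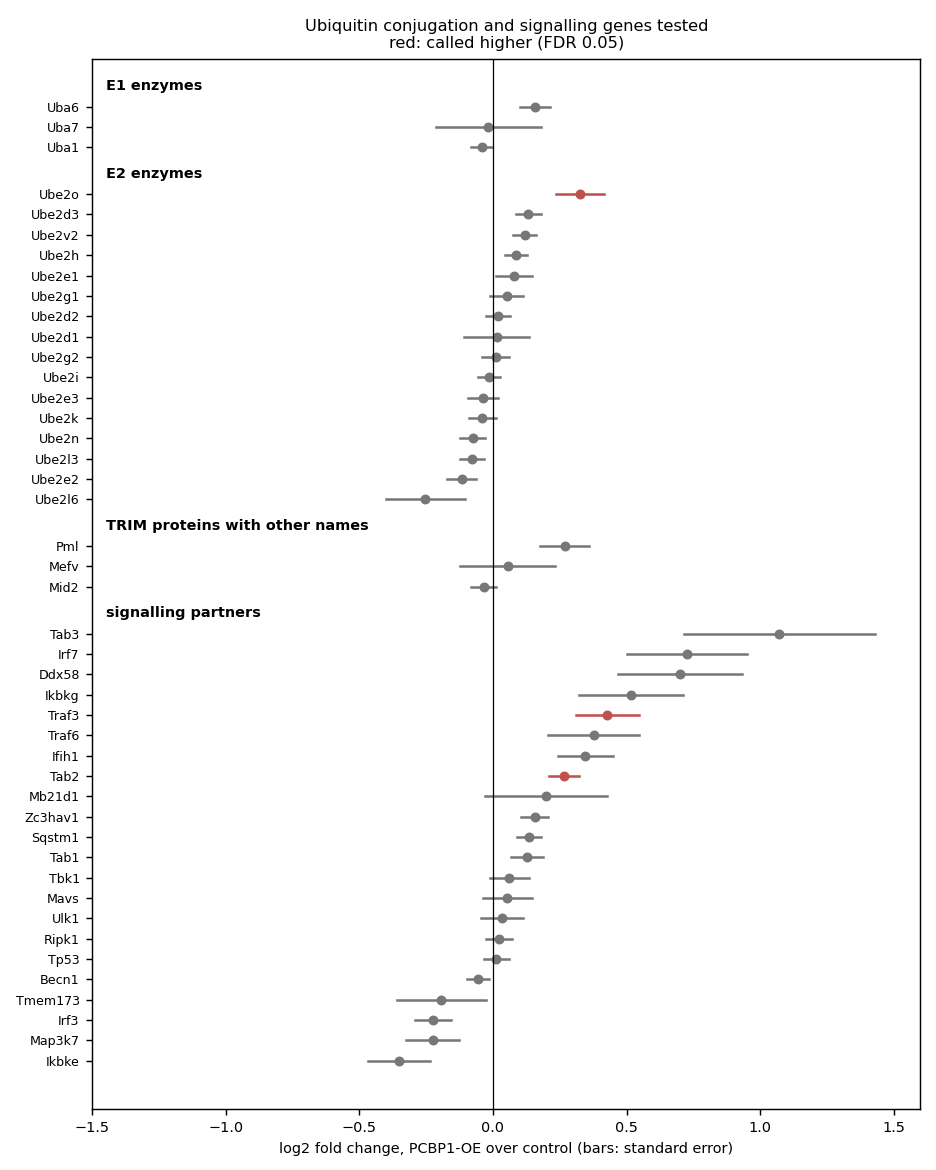
Log2 fold change of PCBP1-OE over control with its standard error (horizontal axis) for the tested E1 and E2 enzymes, TRIM proteins with other names and signalling proteins. Ube2o, Traf3 and Tab2 (red) were called higher.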

How the data were processed

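RNA-seq was performed on 6 libraries of PC12 cells, 3 control and 3 PCBP1-OE, grouped and numbered by their labels. The deposited values are raw read counts for each gene, not normalized. Per the methods, adaptors were trimmed with FASTX-Toolkit, TopHat2 aligned the reads to Rnor_6.0, a rat assembly, and uniquely mapped reads were counted. The processing notes name GRCh38, a human build, but the gene identifiers are those of rat. Labels and methods name different kits, each for stranded libraries. Which tool counted the reads, with which strand setting and annotation, is not given in the sources used here. Hence the values of overlapping genes are uncertain, and reads shared by near-identical genes were left out.

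Counts were tested with edgeR 4.0.16 (R 4.3.3) by glmQLFit and glmQLFTest, after removal of low genes by filterByExpr and TMM scaling. The filter asked for the equivalent of 10 counts, scaled to library size, in at least 3 libraries, and for 15 counts in total. It kept 12624 of 20609 genes. Standard errors were taken from the quasi-likelihood F statistic. The alternatives used RLE scaling, upper-quartile scaling, all genes without a filter, genes at 1 CPM in 3 libraries, DESeq2 1.42.0, edgeR's exact test, limma-voom (limma 3.58.1), a block for the replicate number, or omitted each library in turn. Libraries of 1 group were not duplicates and varied beyond sampling noise (chi-square per gene of 5.49 to 16.0).

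The members and lists were chosen with earlier results of these data known. Full statistics are given for members with an FDR of 0.05 or less and the 6 with the next smallest p, list genes with an FDR of 0.05 or less are named, and other genes describe a group. Ckm and the list genes with a larger FDR were chosen after their values were seen. Promoters and gene order are from RefSeq (GRCr8), and 95% intervals and depth limits cover these libraries only. Protein sequences and splicing were not analysed here. Some genes of the ubiquitin pathway are not reported here.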

Additional observations from a re-analysis of the deposited data

How the results depend on the processing

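Trim33, Trim21 and Trim47 kept their direction and their call under RLE and upper-quartile scaling, without a filter, with the stricter filter, and with DESeq2, edgeR's exact test and limma-voom. With the replicate number as a block, 0 members were called higher and 0 lower by edgeR's test, where 9 had an unadjusted p under 0.05, and the calls over all genes went from 1193 to 16. Libraries of the same number did not deviate together (correlations of -0.0776, -0.0514 and -0.0428 for replicates 1, 2 and 3), none correlated best with its own number, and the labels do not say that numbers mark a pairing. With 1 library left out, the members called higher ranged from 0 to 5 and those called lower from 0 to 3. Their median log2 FC ranged from -0.0377, without PCBP1-OE replicate 1, to 0.0289. For the list of E1 and E2 enzymes and TRIM proteins named otherwise, the number called higher was 3 without a filter, 2 with the exact test, 0 with the block and 0 to 2 with 1 library left out. Without a filter and with the exact test, 5.24% and 6.29% of all genes were called higher. The 2 on omission came without control replicate 3 or PCBP1-OE replicate 3, where 22.3% and 5.42% of all genes were called. For the signalling list, the number called higher was 5 under upper-quartile scaling, 8 without a filter, 5 with DESeq2, 7 with the exact test, 0 with the block and 0 to 7 with 1 library left out. The number of this list called lower was 1 without a filter, 1 with the exact test and 0 to 3 with 1 library left out. The 7 higher and 3 lower came without control replicate 3, where 22.3% of all genes were called. Upper-quartile scaling moved the calls over all genes from 562 higher and 631 lower to 655 and 427, and those of members stayed at 2 and 1. The cause of these changes was not tested. Low counts limit the 11 members below the filter, Trim80 and Trim29.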
